A study of Saccharomyces cerevisiae with 6 samples.

Results

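Ribosome biogenesis factors and rRNA helicases are 54 genes of budding yeast, Saccharomyces cerevisiae, taken by gene name from the 6256 genes of the array. They were listed by name for their roles in ribosome assembly, not by a threshold on measured values. The list was however drawn up with earlier results of these data known, so its counts are a description. By role, 28 belong to or act with the small-subunit processome, 13 are assembly factors of the large subunit, and 13 are RNA helicases. All 54 names were found in the files, and 53 of them were tested among 6119 genes.

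A ribosome is assembled in the nucleolus, where RNA polymerase I transcribes a long precursor of the ribosomal RNAs. The small-subunit processome, a large particle of U3 snoRNA and Utp proteins, folds and cleaves the part of the precursor that becomes the small subunit, while another set of factors builds the large subunit around the rest. DEAD-box RNA helicases remodel the folded RNA and release snoRNAs at both branches, and most genes of these factors are transcribed together in growing yeast.

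The measurements are mRNA levels from 6 Agilent dual-colour arrays on Tra1, a large protein of the SAGA and NuA4 histone acetyltransferase complexes with a domain related to PI3K kinases. In every strain the chromosomal TRA1 gene was disrupted (TRA1::Tn10LUK) and the cells lived on a myc-tagged TRA1 gene carried by YCplac111, a centromeric LEU2 plasmid. The mutant strains CY1507, CY1531 and CY1514 carried the alleles tra1_P3408A, tra1_SRR3413 and tra1_S3463A, named after residues of the PI3K domain, and the reference strain CY1524 carried myc-TRA1_SB. Each allele had 2 arrays, called biological replicates by the series, with the dyes swapped so that Cy5 marked the mutant on array 1 and the reference on array 2. Each allele is represented by 1 strain, and culture conditions are not given in the sources used here. The labels conflict in places, since the source text of array 1 of tra1_S3463A names the strain of tra1_SRR3413 while its title names tra1_S3463A. On array 2 of tra1_SRR3413 and of tra1_S3463A, the dye in the source text of 1 channel differs from the labelled one. Strains were taken from the titles and dyes from the label fields, and the affected medians are also given with array 1 of tra1_S3463A moved.

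Values are log2 (mutant / reference), so 0 is no difference, and means stand with the SD of the 2 arrays (n = 2). A gene "passed" where limma's adjusted p over the 6119 genes was under 0.05. Median signal per array lay between 1167 and 3617 in Cy3 and between 1908 and 2482 in Cy5. All 54 factors were well above background in both channels of all 6 arrays, and none was saturated on any array. The number of arrays limits the precision. TRA1 itself was above 0 on every array, from 0.73 to 1.93, and passed in tra1_SRR3413 and tra1_S3463A (limma adjusted p = 0.0260 and 0.0496) but not in tra1_P3408A (adjusted p = 0.0887). LEU2, the marker of the same plasmid, had means of -0.17, -0.40 and -0.19 in tra1_P3408A, tra1_SRR3413 and tra1_S3463A. It passed as lower in tra1_SRR3413 alone (limma adjusted p = 0.0483). The part of either gene in the results below was not tested.

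The comparison of each allele with TRA1 asks how mRNA of the ribosome biogenesis genes differed between the mutant and the reference strain. In tra1_P3408A, 17 of 53 tested factors rose and 0 fell, where 4.76% of all genes rose and 7.93% fell. In tra1_SRR3413, 18 rose and 0 fell, beside 9.33% and 11.7% of all genes. In tra1_S3463A, 23 rose and 0 fell, beside 6.37% and 8.69%. The median of the 53 factors was 0.45, 0.43 and 0.45 in the 3 alleles, a median of 1.36-fold, 1.35-fold and 1.37-fold, while the median of all genes was -0.01, -0.01 and 0.00. More mRNA in each cell and a larger share of cells with that mRNA cannot be told apart, and a change in total mRNA per cell is not seen by ratios scaled within an array.

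The rise was visible on single arrays. On array 1 and array 2, 50 and 53 of 53 factors stood above 0 in tra1_P3408A, 50 and 46 in tra1_SRR3413, and 53 and 47 in tra1_S3463A. Of all genes, 48.8% to 50.9% stood above 0 on an array. Both arrays were above 0 for 50, 43 and 47 factors in the 3 alleles, beside 35.9%, 34.2% and 33.0% of all genes, and for no factor were both below 0. Among all 6119 genes, 43, 36 and 45 of the 53 lay above the third quartile, which stood at 0.20, 0.27 and 0.24. The size of the rise was modest, since only DBP2 reached a 2-fold mean in any allele.

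At an unadjusted limma p under 0.05, 37, 33 and 37 factors were higher, beside 13.2%, 17.8% and 16% of all genes, and 0 were lower in each allele, beside 15.6%, 18.8% and 16.6%. The array number, which is also the dye orientation, was taken as pairing the arrays across alleles. With it as a replicate block, 40, 36 and 44 factors rose and 0 fell. Beside them, 16.9%, 24.1% and 21.2% of all genes were higher and 19.3%, 25.1% and 21.9% lower. The calls of single factors below are those without the block. With the block, 20, 18 and 23 small-subunit factors, 12, 10 and 11 large-subunit factors and 8, 8 and 10 helicases rose. Leaving out an array leaves its allele with 1 array, and calls are not counted for such a fit. Fewer factors and fewer of all genes then passed as higher in that allele. An allele left with 1 array is tested on the spread of the other alleles' arrays, on the assumption that it varies like them. The median of the factors was 0.47 and 0.45 in tra1_P3408A without its array 1 or 2, 0.43 and 0.37 in tra1_SRR3413 and 0.39 and 0.57 in tra1_S3463A. With array 1 of tra1_S3463A counted as tra1_SRR3413, as its source text has it, the median was 0.44 in tra1_SRR3413. It was 0.39 in tra1_S3463A, which then has 1 array, so calls are not counted there either. In each of these settings every factor called in the main comparison stayed above 0. For a left-out array of the allele this only restates that both its arrays were above 0.

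**Figure D1:**
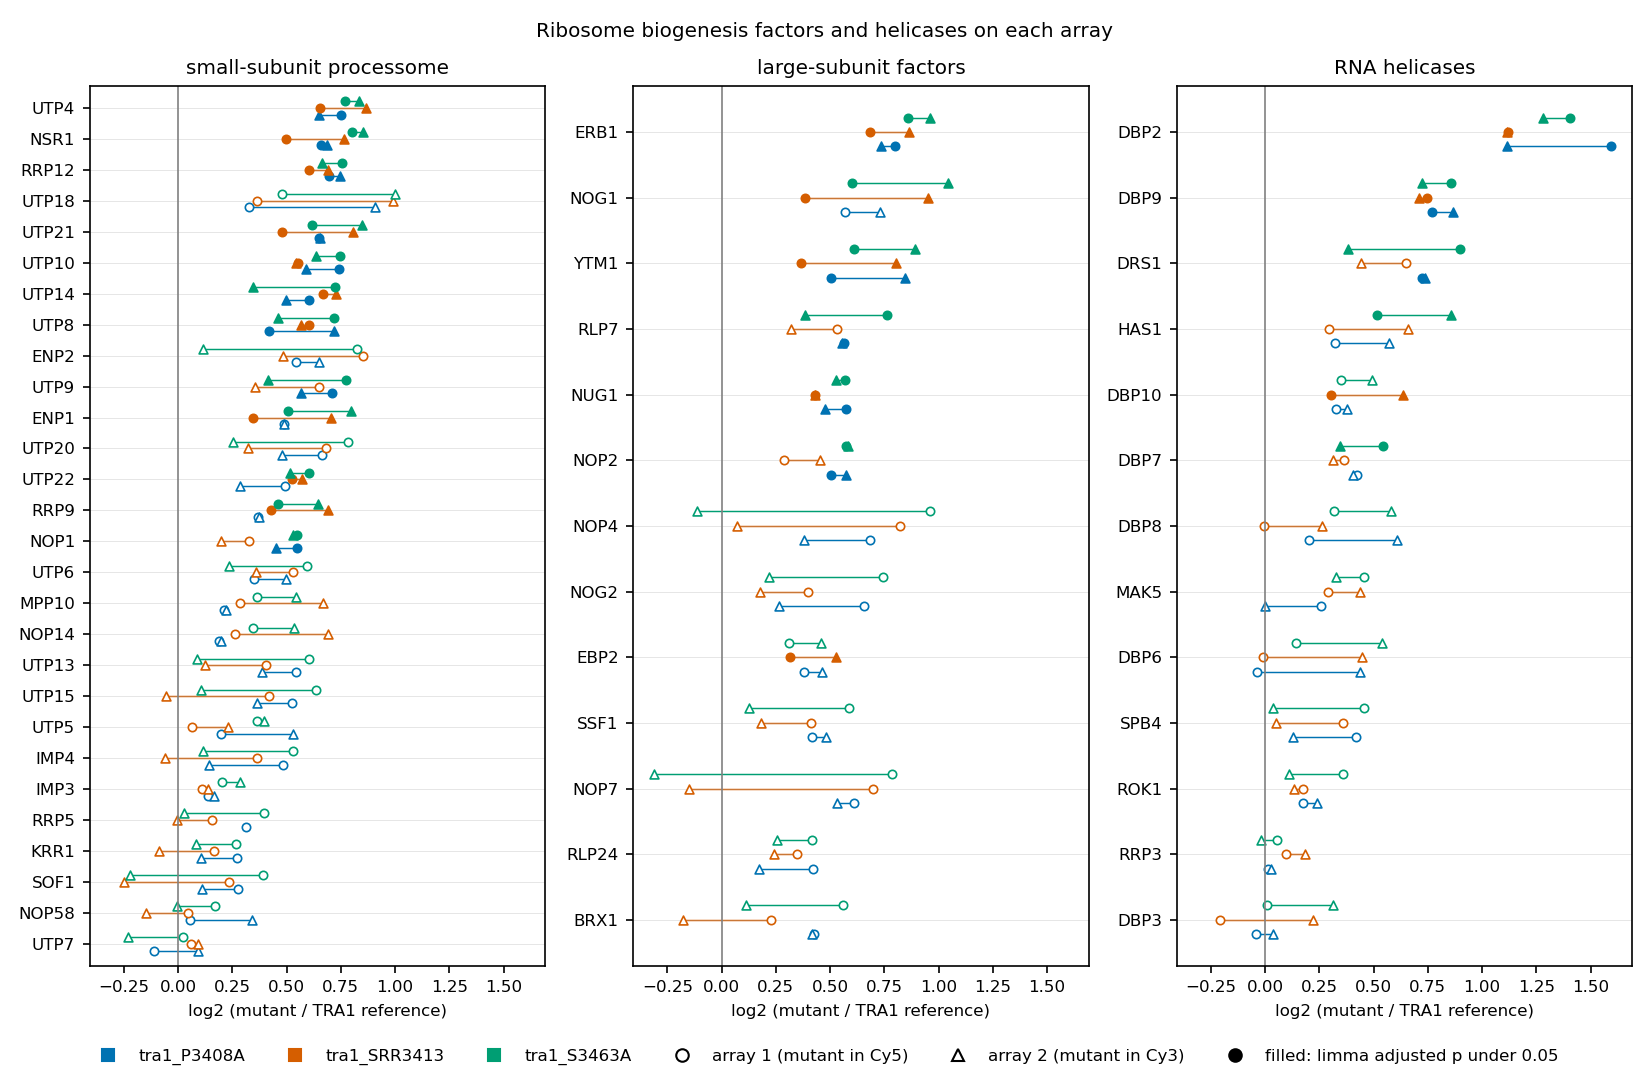
Each factor's log2 (mutant / reference) on the 2 arrays of each allele, by role, ordered by the mean over alleles; lines join the arrays of an allele, and filled symbols passed limma's adjusted p threshold of 0.05. Nearly all symbols lie right of 0, with DBP2 the farthest at 1.11 to 1.60. UTP7, NOP58, SOF1, DBP3 and RRP3 have means over the alleles near 0, though the arrays of SOF1 and DBP3 lie well to both sides.

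The small-subunit processome had 9, 10 and 12 of its 27 tested factors rise in tra1_P3408A, tra1_SRR3413 and tra1_S3463A, with medians of 0.46, 0.50 and 0.52. Its earliest module is UTP-A, the t-Utp complex that binds the 5′ end of the nascent precursor, and 4, 3 and 4 of its 6 genes rose. UTP4 (YDR324C) stood at 0.75 and 0.65 on arrays 1 and 2 of tra1_P3408A, at 0.66 and 0.87 in tra1_SRR3413, and at 0.77 and 0.84 in tra1_S3463A. The lowest array stood at 0.65, and the means of 0.70 ± 0.07, 0.76 ± 0.15 and 0.80 ± 0.05 passed in each allele (1.63-fold, 1.69-fold and 1.75-fold, limma adjusted p = 0.0145, 0.00852 and 0.00909). UTP10 (YJL109C), the largest protein of the module, read 0.74 and 0.59, 0.55 and 0.54, and 0.75 and 0.64 on the same arrays. It passed in all 3 alleles (limma adjusted p = 0.0150, 0.0185 and 0.0126). UTP8 read 0.42 and 0.72, 0.60 and 0.57, and 0.72 and 0.46, and also passed in each. UTP9 read 0.71 and 0.56, 0.65 and 0.35, and 0.77 and 0.41, and passed in tra1_P3408A and tra1_S3463A but missed the threshold in tra1_SRR3413 (limma adjusted p = 0.0519). UTP15 and UTP5, whose means ran from 0.15 to 0.44, passed in none of the 3 alleles.

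UTP-B, which joins after UTP-A and contacts U3 snoRNA, had 1 of its 4 listed genes rise in each allele. That gene was UTP21 (YLR409C), at 0.65 and 0.66 in tra1_P3408A, 0.48 and 0.81 in tra1_SRR3413, and 0.62 and 0.85 in tra1_S3463A (limma adjusted p = 0.0285, 0.0203 and 0.0184). UTP18 had means as high, 0.62 ± 0.41, 0.68 ± 0.44 and 0.74 ± 0.37, but its arrays lay far apart. It read 0.33 and 0.91, 0.36 and 0.99, and 0.48 and 1.00, with array 2 the higher in every allele. UTP18 did not pass in any allele without the array number as a block (limma adjusted p = 0.133, 0.0830 and 0.0779) and passed in each with it (0.00252, 0.00149 and 0.00147). UTP6 and UTP13 had means of 0.26 to 0.46 and did not pass without the block. With it, 4, 3 and 4 of the 4 UTP-B genes rose. UTP22, a core protein of the UTP-C complex, read 0.49 and 0.28 in tra1_P3408A, where it did not pass, and 0.52 and 0.57 in tra1_SRR3413 and 0.60 and 0.52 in tra1_S3463A, where it did (limma adjusted p = 0.0206 and 0.0255).

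Of the 3 listed proteins of the U3 snoRNP, 1, 1 and 2 rose in the 3 alleles. NOP1, the fibrillarin methyltransferase of box C/D snoRNPs, read 0.55 and 0.45 in tra1_P3408A and 0.55 and 0.53 in tra1_S3463A and passed in both (limma adjusted p = 0.0327 and 0.0248), while in tra1_SRR3413 it read 0.33 and 0.20 and did not (adjusted p = 0.129). RRP9, the U3-specific protein, read 0.37 and 0.37, 0.43 and 0.69, and 0.46 and 0.64, and passed in tra1_SRR3413 and tra1_S3463A (limma adjusted p = 0.0236 and 0.0316). NOP58, the core scaffold of the same particles, was among the lowest of all factors at 0.05 and 0.34, 0.05 and -0.15, and 0.17 and -0.01. The Mpp10 complex, which anchors U3 snoRNA to the precursor, had 0 of 3 genes pass in any allele, with 0, 1 and 1 at an unadjusted limma p under 0.05 and 1, 1 and 3 passing with the block. MPP10, IMP3 and IMP4 had means between 0.12 and 0.48, and IMP3, at 0.14 and 0.17, was the lowest factor of tra1_P3408A in this class apart from UTP7.

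Among the remaining small-subunit factors, RRP12, NSR1 and UTP14 rose in each allele. RRP12 (YPL012W), a HEAT-repeat protein needed for export of pre-ribosomes, read 0.70 and 0.74, 0.61 and 0.69, and 0.76 and 0.66. Those 6 arrays lie close together, and the means of 0.72 ± 0.03, 0.65 ± 0.06 and 0.71 ± 0.07 all passed (1.65-fold, 1.57-fold and 1.63-fold, limma adjusted p = 0.0112, 0.0107 and 0.0105). NSR1 (YGR159C), the yeast nucleolin, read 0.66 and 0.69, 0.50 and 0.76, and 0.80 and 0.85 (limma adjusted p = 0.0181, 0.0158 and 0.00909). UTP14, which activates the helicase Dhr1, read 0.60 and 0.50, 0.67 and 0.73, and 0.72 and 0.34. ENP1, a factor that stays on the particle into the cytoplasm, passed in tra1_SRR3413 (0.34 and 0.71) and tra1_S3463A (0.51 and 0.80) but not in tra1_P3408A (0.49 and 0.49, limma adjusted p = 0.0693). ENP2, UTP20 and NOP14 passed in none, with means from 0.19 to 0.67.

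A few small-subunit genes had low means. UTP7 read -0.11 and 0.09, 0.06 and 0.09, and 0.02 and -0.23, with limma adjusted p = 0.969, 0.690 and 0.600. SOF1, like UTP7 a WD-repeat protein of the processome, read 0.28 and 0.11, 0.23 and -0.25, and 0.39 and -0.22. Its low means in tra1_SRR3413 and tra1_S3463A thus come from arrays of opposite sign. KRR1 had means of 0.19, 0.04 and 0.18. RRP5, which is needed for both subunits, lacked a value on array 2 of tra1_P3408A because both its spots there were marked as outliers, so it was not tested. With those spots kept its means were 0.12, 0.08 and 0.21, and it did not pass (limma adjusted p = 0.646, 0.739 and 0.386).

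The large-subunit factors had 5, 5 and 6 of 13 rise in tra1_P3408A, tra1_SRR3413 and tra1_S3463A, with medians of 0.53, 0.42 and 0.48. In the PeBoW complex of Nop7, Erb1 and Ytm1, which is needed to process the RNA of the large subunit, 2 of 3 genes rose in each allele. ERB1 (YMR049C) read 0.80 and 0.73 in tra1_P3408A, 0.68 and 0.86 in tra1_SRR3413, and 0.86 and 0.96 in tra1_S3463A. All 6 arrays were at or above 0.68, and the means of 0.77 ± 0.04, 0.77 ± 0.13 and 0.91 ± 0.07 passed (1.70-fold, 1.71-fold and 1.88-fold, limma adjusted p = 0.0108, 0.00783 and 0.00649). YTM1 (YOR272W) read 0.50 and 0.85, 0.37 and 0.80, and 0.61 and 0.89. It was higher on array 2 in every allele and passed each time, in tra1_SRR3413 only just under the threshold. NOP7, the third subunit, read 0.61 and 0.53, 0.70 and -0.15, and 0.79 and -0.31 and passed in none of the 3 alleles (limma adjusted p = 0.277, 0.547 and 0.634).

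Of the nucleolar GTPases, NUG1 (YER006W) had the closest arrays, at 0.57 and 0.47, 0.43 and 0.43, and 0.57 and 0.53, and passed in every allele (limma adjusted p = 0.0270, 0.0329 and 0.0216). NOG1 reached higher levels, 0.57 and 0.73, 0.38 and 0.95, and 0.60 and 1.04, with array 2 above array 1 throughout. It passed in tra1_SRR3413 and tra1_S3463A (limma adjusted p = 0.0478 and 0.0334) and missed the threshold in tra1_P3408A (0.0667). NOG2, which acts late in the nucleus, read 0.66 and 0.26, 0.40 and 0.18, and 0.74 and 0.22 and did not pass. In the R64 annotation NOG2 overlaps the snoRNA gene SNR191, and which of the 2 transcripts the probe reads is not given.

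NOP2, an rRNA methyltransferase, read 0.50 and 0.57, 0.29 and 0.46, and 0.57 and 0.58, and passed in tra1_P3408A and tra1_S3463A (limma adjusted p = 0.0284 and 0.0209). RLP7, which resembles a ribosomal protein, passed in the same alleles at 0.57 and 0.55 and at 0.76 and 0.39. EBP2, a partner of Brx1, passed in tra1_SRR3413 (0.32 and 0.53, limma adjusted p = 0.0472). NOP4, SSF1, BRX1 and RLP24 passed in none. The lowest means belonged to RLP24 (0.30) and EBP2 (0.42) in tra1_P3408A, to BRX1 (0.02, from 0.23 and -0.18) and NOP7 in tra1_SRR3413, and to NOP7 (0.24) and RLP24 (0.34) in tra1_S3463A. SSF1 has a near-identical copy, SSF2, so its values of 0.45, 0.30 and 0.36 may hold signal from both.

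The RNA helicases held the largest change and some of the smallest. Of 13, 3 rose in tra1_P3408A, 3 in tra1_SRR3413 and 5 in tra1_S3463A, with medians of 0.35, 0.34 and 0.42. DBP2 (YNL112W), a DEAD-box helicase related to human p68 with roles in mRNA quality control and rRNA processing, read 1.60 and 1.11, 1.12 and 1.12, and 1.41 and 1.28. Every array was above a 2-fold rise, and the means of 1.35 ± 0.34, 1.12 and 1.34 ± 0.09 passed (2.56-fold, 2.17-fold and 2.54-fold, limma adjusted p = 0.00465, 0.00586 and 0.00471). In the scanner's processed intensities, DBP2 went from 1768 in the reference to 5585 in the mutant and from 2958 to 6512 on the 2 arrays of tra1_P3408A. The same pairs were 1742 and 3936, and 2744 and 6105, in tra1_SRR3413, and 1970 and 5422, and 3622 and 8843, in tra1_S3463A. The reference spot varied about as much as 2-fold between arrays, yet the mutant was the brighter on every array, whichever dye it carried. Under 21 alternatives each, DBP2 passed in all in tra1_SRR3413 and tra1_S3463A and in 20 in tra1_P3408A, where leaving out array 1 gave a limma adjusted p of 0.0996.

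**Figure D2:**
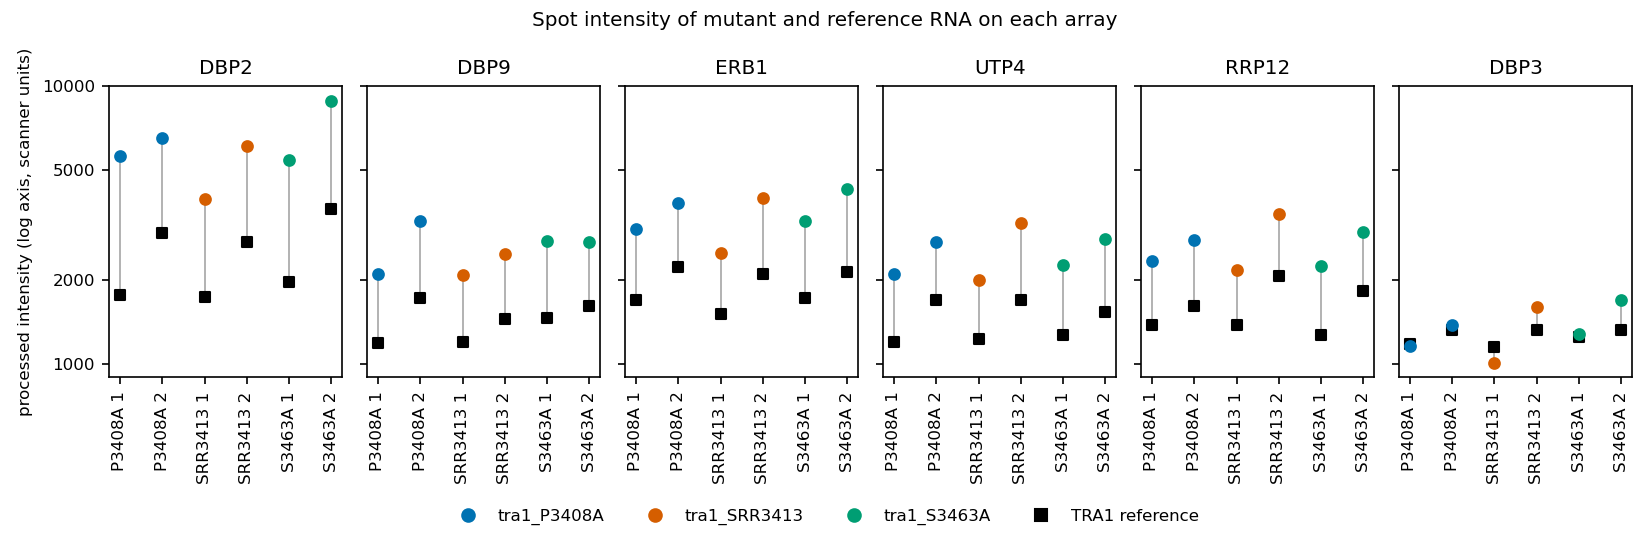
Processed spot intensity (scanner units, log axis) of mutant (coloured points) and TRA1 reference (black squares) RNA on each of the 6 arrays for DBP2, DBP9, ERB1, UTP4, RRP12 and DBP3. For the first 5 genes the mutant is the brighter on all 6 arrays; for DBP3 the points lie close together and cross.

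DBP9 (YLR276C) and DRS1 (YLL008W) are helicases of the large-subunit pathway. DBP9 read 0.77 and 0.87, 0.75 and 0.71, and 0.86 and 0.72, and the means of 0.82 ± 0.07, 0.73 ± 0.03 and 0.79 ± 0.10 passed in all alleles (1.76-fold, 1.66-fold and 1.73-fold, limma adjusted p = 0.00823, 0.00843 and 0.00849). DRS1 read 0.72 and 0.74, 0.65 and 0.44, and 0.90 and 0.38, and passed in tra1_P3408A and tra1_S3463A, with limma adjusted p = 0.0503 in tra1_SRR3413. DBP10 passed in tra1_SRR3413 alone (0.30 and 0.63, limma adjusted p = 0.0451) and DBP7 in tra1_S3463A alone (0.54 and 0.34, adjusted p = 0.0449), although the difference between alleles was not called for either. HAS1, which acts in both branches, read 0.32 and 0.57, 0.30 and 0.66, and 0.52 and 0.86, and passed in tra1_S3463A (limma adjusted p = 0.0334). MAK5, SPB4 and DBP6, of the large-subunit pathway, had means from 0.13 to 0.39 and passed in none.

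The helicases of the small-subunit pathway, DBP8, ROK1 and RRP3, passed in no allele, with 1, 0 and 1 higher at an unadjusted limma p under 0.05 and 1, 0 and 1 passing with the array number as a block. Their medians were 0.21, 0.14 and 0.24, beside 0.31, 0.35 and 0.41 for the 8 large-subunit helicases. DBP8 had means of 0.41, 0.13 and 0.45, and ROK1 of 0.21, 0.15 and 0.24. RRP3 read 0.01 and 0.03, 0.10 and 0.18, and 0.06 and -0.02, so no array was farther from 0 than 0.18. In the R64 annotation its next gene is SSF1, the large-subunit factor with the higher means given above. DBP3, a large-subunit helicase, read -0.04 and 0.03, -0.21 and 0.22, and 0.01 and 0.31 (limma adjusted p = 0.991, 0.971 and 0.503). Its means near 0 in tra1_P3408A and tra1_SRR3413 come from arrays of opposite sign, and its mean in tra1_S3463A was 0.16. Its processed intensities in mutant and reference were 1166 and 1179 on array 1 of tra1_P3408A and 1697 and 1333 on array 2 of tra1_S3463A, so the direction differed between arrays.

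Small-subunit factors were next set against the large-subunit factors and helicases together, as a description without a test. The median of the 27 small-subunit factors minus that of the other 26 was 0.02 in tra1_P3408A, 0.13 in tra1_SRR3413 and 0.08 in tra1_S3463A. On single arrays the difference was 0.07 and 0.01, 0.06 and 0.11, and 0.03 and 0.03. The SD of these array values was 0.04, 0.04 and 0.0015. It is not the spread of the differences given first, which are taken from gene means. In tra1_SRR3413 and tra1_S3463A those exceeded the values of both arrays. The difference also depended on where helicases were placed. Against large-subunit factors alone it was -0.07, 0.08 and 0.04, and with means in place of medians it was -0.03, 0.02 and -0.03. It was thus above 0 in tra1_SRR3413 in each of these forms, while in tra1_P3408A and tra1_S3463A its sign turned in at least 1. The interquartile ranges of both classes overlapped widely, at 0.26 to 0.61 and 0.31 to 0.57 in tra1_P3408A.

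**Figure D3:**
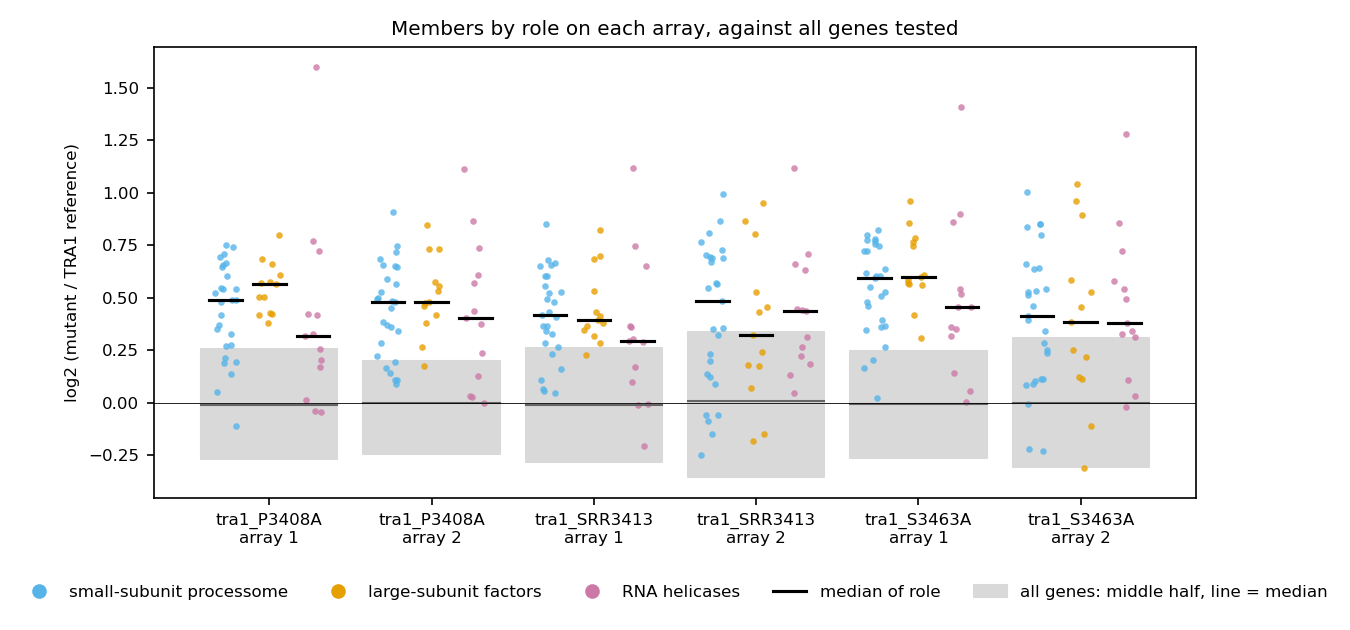
Log2 (mutant / reference) of each factor by role on each of the 6 arrays, with the role's median as a black bar and the interquartile range of all 6119 genes as a grey box. The median of every role on every array lies above 0, between 0.30 and 0.60, and the roles overlap on each array.

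The spread between arrays differed among factors. The 2 spots of a factor on 1 array differed by a median of 0.03, while the median SD between arrays of an allele was 0.08 in tra1_P3408A, 0.16 in tra1_SRR3413 and 0.18 in tra1_S3463A. Array 2 of tra1_SRR3413 and array 2 of tra1_S3463A shared slide 3, and there the interquartile range of all genes was wider, from -0.35 to 0.34 and from -0.31 to 0.31. NOP7 and NOP4 had the largest gaps. NOP4, an RNA-binding large-subunit factor, read 0.68 and 0.38, 0.82 and 0.07, and 0.96 and -0.11. Both genes were thus near or below 0 on slide 3 and at 0.38 or more on the other 4 arrays. UTP18, NOG1, YTM1, HAS1, DBP6 and DBP8 were among those that went the other way, higher on array 2 in all 3 alleles, by 0.58, 0.63 and 0.52 for UTP18 and by 0.48, 0.45 and 0.40 for DBP6. Array 2 of tra1_P3408A, on slide 2, has the same dye orientation and number as the arrays of slide 3, and NOP7 and NOP4 read 0.53 and 0.38 there. On that array UTP18 read 0.91, and on array 1 of tra1_S3463A, on the same slide, it read 0.48. Dye orientation and array number cannot be told apart.

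**Figure D4:**
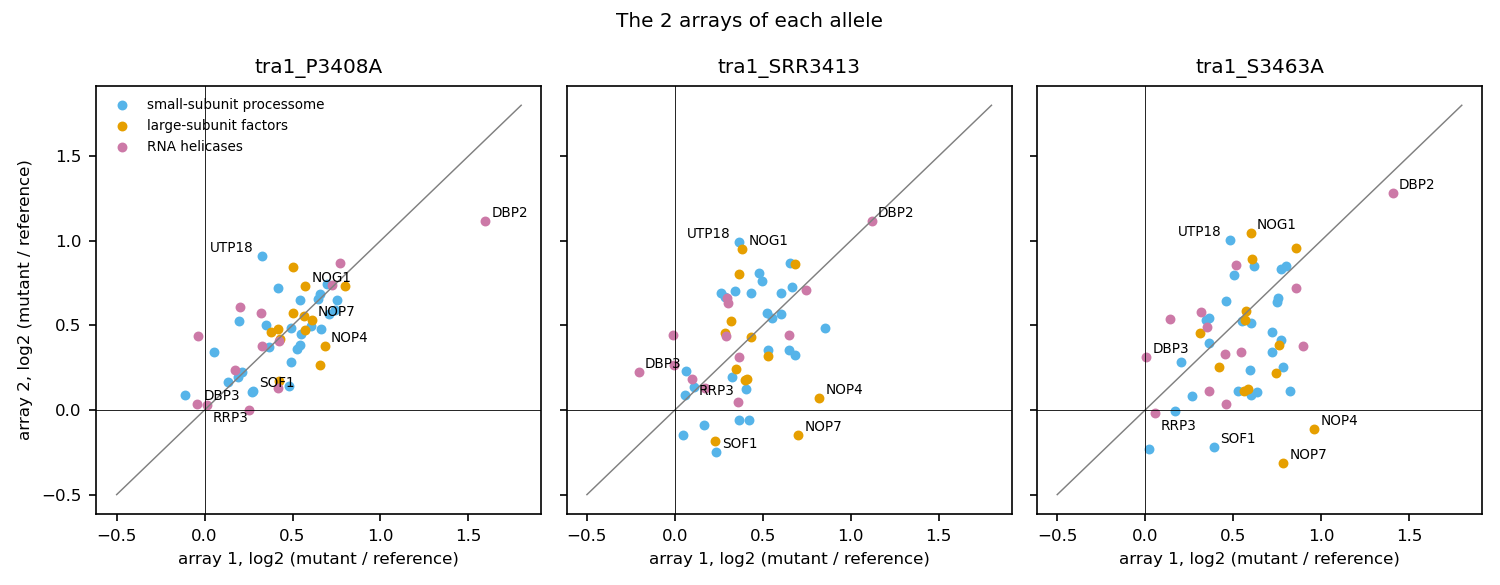
Log2 (mutant / reference) of the 53 tested factors on array 1 (x axis) against array 2 (y axis) in each allele, coloured by role, with the line of equality. Most points lie in the upper right; NOP7 and NOP4 fall far under the line in tra1_SRR3413 and tra1_S3463A, and UTP18 lies above it in each allele.

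The alleles were compared with each other by contrasts of the same fit. All 3 alleles were measured against the 1 reference strain, so their values stand side by side and no agreement between them is drawn. Of the 53 factors, 0 differed between any pair of alleles at a limma adjusted p under 0.05, and 0 did at an unadjusted p under 0.05. Of all genes 0% were called in either direction for each pair. At an unadjusted p, 0.899% of all genes were higher and 0.817% lower in tra1_P3408A than in tra1_SRR3413, 1.13% and 0.588% in tra1_S3463A than in tra1_SRR3413, and 0.0327% and 0.0654% in tra1_P3408A than in tra1_S3463A. This fit has no term for the array number. Deviations that same-numbered arrays share thus stay in its spread, although they cancel in a contrast of alleles. Counts of 0 are therefore weak evidence that the alleles are alike. The fit leaves room for differences, as the 95% interval of a factor's difference had a median half-width of 0.45.

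Between tra1_P3408A and tra1_SRR3413 the factors' differences ran from -0.29 (NOP14) to 0.40 (BRX1, 95% interval -0.14 to 0.94). Between tra1_S3463A and tra1_SRR3413 they ran from -0.20 (ENP2) to 0.32 (DBP8), and between tra1_P3408A and tra1_S3463A from -0.26 (MAK5) to 0.33 (NOP7). For DBP2 the difference was 0.24 (95% interval -0.25 to 0.73) between tra1_P3408A and tra1_SRR3413 and 0.01 (-0.48 to 0.50) between tra1_P3408A and tra1_S3463A. ERB1 was 0.13 higher in tra1_S3463A than in tra1_SRR3413 (95% interval -0.24 to 0.51).

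Other genes of ribosome assembly, listed by role, gave a setting for these factors. Of 40 tested other small-subunit genes, 6, 10 and 8 rose and 0 fell in tra1_P3408A, tra1_SRR3413 and tra1_S3463A, with medians of 0.30, 0.24 and 0.28. Of all genes, 4.76%, 9.33% and 6.37% rose and 7.93%, 11.7% and 8.69% fell. DHR2, a helicase of the small-subunit pathway, led with 0.95 and 1.13, 0.86 and 0.77, and 1.19 and 0.96 (limma adjusted p = 0.00562, 0.00817 and 0.00526). ESF1 (0.50, 0.63 and 0.57), the UTP-A gene NAN1 (0.48, 0.64 and 0.51) and the UTP-B gene PWP2 (0.53, 0.63 and 0.69) rose in each allele. SLX9 rose in tra1_P3408A (0.71) and tra1_SRR3413 (0.52).

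Of 51 tested other large-subunit genes, 9, 13 and 13 rose and 1, 2 and 1 fell, with medians of 0.32, 0.30 and 0.33. The shares of all genes were again 4.76%, 9.33% and 6.37% higher and 7.93%, 11.7% and 8.69% lower. SDA1, needed for export of the large subunit, read 0.97 and 1.02, 1.01 and 1.27, and 1.14 and 1.08 (limma adjusted p = 0.00562, 0.00283 and 0.00449). MTR4, the helicase that feeds the nuclear exosome, rose in each allele (1.04, 0.89 and 0.99), as did PUF6 (0.63, 0.63 and 0.73), and RIX7, an AAA ATPase, rose in tra1_SRR3413 (0.79) and tra1_S3463A (0.67). The genes that fell were RSA1, a snoRNP assembly factor, by 0.57, 0.52 and 0.49, and BUD20 in tra1_SRR3413, by 0.60.

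Proteins of snoRNPs, 12 genes beside those of U3 above, had 0 called in limma's test in each allele. At an unadjusted limma p under 0.05, 2, 1 and 2 were higher and 0 lower. Of all genes, 13.2%, 17.8% and 16% were higher and 15.6%, 18.8% and 16.6% lower at that threshold. With only 12 genes, the counts of higher genes cannot be told from the shares of all genes. The medians of the snoRNP genes were 0.17, 0.03 and 0.13. Of 13 regulators of ribosome biogenesis genes, 4, 6 and 6 rose and 0 fell. Beside them, 4.76%, 9.33% and 6.37% of all genes rose and 7.93%, 11.7% and 8.69% fell. With only 13 genes, the 0 that fell cannot be told from the shares of all genes. The regulators that rose act in different directions as far as is known. DOT6, a repressor of ribosome biogenesis genes, rose by 0.67, 0.89 and 0.73, and RAP1, an activator of ribosomal protein genes, by 0.63, 0.73 and 0.86. TOR2, a kinase of the TOR complexes, rose by 0.52, 0.46 and 0.53, and HMO1, a nucleolar HMG protein, by 0.57 in tra1_P3408A and 0.56 in tra1_S3463A. IFH1, a coactivator of ribosomal protein genes and in R64 the neighbour of UTP13, rose by 0.65 in tra1_SRR3413.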

How the data were processed

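Spot intensity values (mean, local background and processed) and a log10 ratio come from the authors' Feature Extraction software, version 7.5.1 per the file headers; the deposited spot flags are scores of 0 or 1. In the authors' series table, 99.9% of spots per array equalled that log10 ratio, turned to mutant over reference, within 0.001. With limma 3.58.1 in R 4.3.3, mean signals were background-corrected (normexp, offset 50) and loess-normalized within arrays. Control and outlier spots were dropped, all ratios set as mutant over reference, and a gene's spots averaged. A gene had to be well above background in 1 channel on 2 arrays, and 135 genes lacking a value were left out.

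Each allele's mean was tested against 0, two-sided, in 1 fit of the 6 arrays (3 residual degrees of freedom), with Benjamini-Hochberg adjustment; allele differences were contrasts. Whether 1 reference extract served several arrays is not stated, and any spread of the reference that arrays share is not in the test. Deviations of same-numbered arrays correlated at 0.512 for tra1_P3408A with tra1_SRR3413, which shared slide 1 on array 1. They correlated at 0.467 for tra1_P3408A with tra1_S3463A. For tra1_SRR3413 with tra1_S3463A, which shared slide 3 on array 2, the correlation was 0.930. From these values the array number, which marks the dye orientation per the labels, was taken as pairing the arrays. The part of shared slides in the correlations was not tested. A block on it also removes deviations shared through the reference, which can make its p-values too small. Genes were named from R64, whose coordinates served only to find overlapping and neighbouring genes. No coordinates or sequences of the probes were used, since the array files name no build. Members and lists were chosen with earlier results of these data known. Factors were described by role from the largest passing change down, then the lowest; of other lists, the called genes with the smallest p (up to 3 per allele) and those that fell. The code was tested on simulated data.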

Additional observations from a re-analysis of the deposited data

How the results depend on the processing

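No factor's value in a comparison it passed changed sign under any of the 21 alternatives. This was in large part fixed by the design. Several alternatives, such as the array number as a replicate block, leave an allele's means unchanged. Leaving out an array of the allele returns its other array, and both were above 0 for these factors. Under the alternatives that kept 2 arrays per allele, 0 factors fell and 0 allele differences were called. The number of factors that rose in tra1_P3408A, 17, was 9 with median centring in place of loess, 33 with only the arrays of that allele, 40 with the array number as a replicate block, 38 with the slide as a fixed block, and from 0 to 16 with 1 array left out. In tra1_SRR3413, 18 became 11 with only its own arrays, 36 with the replicate block, 37 with the slide as a fixed and 28 as a random block, 36 with array 1 of tra1_S3463A counted there, and from 1 to 15 with 1 array left out. In tra1_S3463A, 23 became 44 with the replicate block, 46 with the slide as a fixed block, 7 with array 1 counted elsewhere, and from 1 to 22 with 1 array left out. Each fit with 1 array left out had 2 residual degrees of freedom in place of 3 and left 1 allele with 1 array. Its calls are therefore not counted here. For the counts above that kept 2 arrays per allele, the share of all genes that rose shifted the same way. In tra1_P3408A, 4.76% became 2.63% with median centring, 11.6% with its own arrays, and 16.9% and 21.3% with the replicate and fixed slide blocks. In tra1_SRR3413, 9.33% became 7.76% with its own arrays and 24.1%, 25% and 11.2% with the replicate, fixed slide and random slide blocks. In tra1_S3463A, 6.37% became 21.2% and 24.5% with the replicate and fixed slide blocks.

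The median of the factors in tra1_P3408A, 0.449, was 0.487 with processed signals, deposited log ratios or the series table, 0.440 without background correction, 0.456 with median centring, 0.416 and 0.422 with the slide as a fixed or random block, and 0.449 to 0.475 with 1 array left out. With 1 array left out it was 0.367 to 0.430 in tra1_SRR3413 and 0.395 to 0.566 in tra1_S3463A, where 0.453 also became 0.501 with processed signals, 0.553 with median centring and 0.508 with the slide as a fixed block. The small-subunit median minus that of the other factors, in the order of the 3 alleles, was -0.0275, 0.0548 and 0.0182 with small-subunit helicases counted as small-subunit, -0.0661, 0.0796 and 0.0362 without helicases, and -0.0313, 0.0184 and -0.0252 with means. With 1 array left out it ran from 0.0111 to 0.0618, from 0.0579 to 0.135 and from 0.0306 to 0.0829. With array 1 of tra1_S3463A moved it was 0.0849 in tra1_SRR3413 and 0.0306 in tra1_S3463A, and in tra1_S3463A it was 0.0730 with processed signals, deposited log ratios or the series table and 0.0530 with outlier spots kept. The causes of these changes were not tested. All factors were well above background.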
